A study of Mus musculus with 6 samples.

Results

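The 55 genes described here encode the NF-κB transcription factor, the proteins that hold it in check, the kinases that release it, including the TAK1 complex, and the TNF receptors, Toll-like receptors (TLRs) and adaptors that lie above them. They were chosen by gene symbol from a fixed list, and each symbol matched 1 of the 23282 rows of the deposited count files. RNA came from liver sinusoidal endothelial cells (LSECs), the fenestrated cells that line the hepatic capillaries, of *Txnip*-/- mice (3 libraries) and of WT mice (3 libraries). *Txnip*-/- mice lack TXNIP, a thioredoxin-binding protein, in every cell of the body and were kept on a C57BL/6J background, and the WT controls were C57BL/6J. LSECs were obtained by collagenase perfusion, a density gradient and CD146 magnetic beads. The sources used here do not state the age of these mice, whether animals were pooled, or whether RNA was taken before or after culture. The study asked how TXNIP bears on TAK1 signalling to JNK in LSECs, and the comparison of genotypes below asks whether the transcripts of that pathway differed.

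NF-κB is a pair of Rel-family subunits kept in the cytoplasm by IκB proteins. Binding of TNF, bacterial products or other danger signals to their receptors recruits TRAF and IRAK adaptors, ubiquitin chains then activate TAK1 and the IKK complex, and IKK marks IκB for destruction so that the dimer enters the nucleus. Several genes that NF-κB switches on encode its own subunits and inhibitors, so part of the pathway is under its own control. LSECs carry TLR4 and other pattern receptors and meet gut-derived bacterial products in portal blood.

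Of the 55 genes, 53 passed the filter on low counts and were tested with the other genes (11583 in all) by the edgeR quasi-likelihood test. After adjustment over all genes tested, 3 members were higher in *Txnip*-/- LSECs and none was lower. The 3 were *Tnip1* and *Nfkbia*, which encode inhibitors, and *Nfkb2*, which encodes a subunit. The kinase TAK1 (*Map3k7*) and its partners, the IKK kinases and the TLRs had no called change. Of the 53, 16 were listed as induced by NF-κB itself, a list chosen with earlier results of these data known. These 16 lay higher in *Txnip*-/- LSECs by a median of 0.47 on the log2 scale, while the median of the other 37 was 0.0089. That difference is a description and carries no test.

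The bases just before an annotated transcript start of 4 of these genes are shown because they hold matches to the κB consensus, the short sequence that NF-κB dimers bind. They are the genes of the 3 called members and *Map3k7*, whose level did not pass the test. Each run holds 250 bases before a RefSeq transcript start on GRCm38.p6, 5′ to 3′ on the strand of the gene, with κB matches on either strand in capitals and overlapping matches merged into 1 run of capitals.
*Nfkbia*, chr12:55492648-55492897, minus strand: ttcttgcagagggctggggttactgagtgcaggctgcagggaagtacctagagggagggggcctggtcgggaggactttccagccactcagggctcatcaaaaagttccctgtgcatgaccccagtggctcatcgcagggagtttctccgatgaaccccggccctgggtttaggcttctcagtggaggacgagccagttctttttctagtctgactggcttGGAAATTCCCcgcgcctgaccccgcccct
*Tnip1*, chr11:54962941-54963190, minus strand: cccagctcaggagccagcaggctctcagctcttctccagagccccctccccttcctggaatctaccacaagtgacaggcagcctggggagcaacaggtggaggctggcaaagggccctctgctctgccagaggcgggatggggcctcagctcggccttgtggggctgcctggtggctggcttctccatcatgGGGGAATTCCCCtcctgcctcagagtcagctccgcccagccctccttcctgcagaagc
*Nfkb2*, chr19:46305445-46305694, plus strand: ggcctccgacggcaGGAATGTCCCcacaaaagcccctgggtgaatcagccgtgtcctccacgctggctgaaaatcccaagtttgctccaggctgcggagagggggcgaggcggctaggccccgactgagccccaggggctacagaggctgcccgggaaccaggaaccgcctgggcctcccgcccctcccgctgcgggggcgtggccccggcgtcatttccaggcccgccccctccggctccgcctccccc
*Map3k7*, chr4:31963857-31964106, plus strand: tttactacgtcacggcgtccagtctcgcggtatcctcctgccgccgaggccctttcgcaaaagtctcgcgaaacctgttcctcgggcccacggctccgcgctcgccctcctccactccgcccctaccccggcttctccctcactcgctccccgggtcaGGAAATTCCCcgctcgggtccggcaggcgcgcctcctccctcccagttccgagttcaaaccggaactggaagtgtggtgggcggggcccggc
The match in *Nfkbia* began 29 bases before the start, that in *Map3k7* 92 bases before it, and that in *Nfkb2* 236 bases before it. *Tnip1* had 3 overlapping matches that began 58, 57 and 56 bases before the start. The *Nfkb2* run lies within the gene, before the second of its 3 RefSeq starts. It was chosen because it holds 0 bases of an *Nfkb2* exon in GENCODE, against 250 and 234 of the 250 bases before the other starts. In the chosen run 167 bases lie in an exon of another gene, against 250 before the earliest start and 0 before the last. The windows of the other *Nfkb2* starts held matches too, and those of the earliest start began 39, 38 and 11 bases before it. The RefSeq starts used lie 0 bases (*Nfkbia*), 1 base (*Nfkb2*), 10 bases (*Map3k7*) and 23 bases (*Tnip1*) from the nearest GENCODE start of the gene.

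Among the 45 members with such a window, 13 held a κB match (28.9%), against 924 of 8824 tested genes with a window (10.5%). Matches were found in 9 of 13 NF-κB-induced members (69.2%) and in 4 of 32 other members (12.5%), namely *Irak1*, *Map3k7*, *Tlr3* and *Traf3*. All 3 called members held one, and all 3 are on the induced list. That list was chosen for induction by NF-κB, with earlier results of these data known, so its share of matches is a description and carries no test. Its members *Relb*, *Nfkbiz* and *Nfkb1* had no window. The AP-1 element TGANTCA, searched on both strands, was found in the windows of *Ikbkg*, *Nfkb2*, *Nfkbie* and *Tnfaip3*, 4 of 45 members (8.89%), against 475 of 8824 tested genes (5.38%). A match describes letters only, and nothing in these data measured binding. No window was at hand for *Tlr4*, *Ly96*, *Tradd*, *Relb*, *Ripk2*, *Nfkbiz*, *Tlr7*, *Nfkb1*, *Ikbkb* and *Tab1*.

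Each library held between 9147764 and 10193952 counts, at which 3 counts equal 0.286 to 0.335 CPM (counts per 1e6 counts of the library). *Txnip* itself, the check of the labels, was at 24.2 ± 5.15 CPM in *Txnip*-/- and 196 ± 13.3 CPM in WT libraries (mean ± SD, n = 3 each). All levels below are CPM scaled by TMM factors, and because QuantSeq reads come from the 3′ end of transcripts they do not grow with transcript length. WT replicate 3 stood apart from WT replicates 1 and 2, with a chi-square of 36.9 and 40 per degree of freedom between it and them. The chi-square was 3.93 between those 2, and 8.41 to 9.62 between *Txnip*-/- libraries. Between WT replicate 3 and *Txnip*-/- replicates 1 to 3 the chi-square was 13.3, 13.9 and 17.2, lower than against the other WT libraries. The ribosomal row *Rn45s* took 17.8% of the counts of WT replicate 3, 10% and 9.68% in the other WT libraries and 16.8% to 18.6% in *Txnip*-/- libraries. The chi-square was taken on unscaled counts with *Rn45s* included, so these shares are not a separate observation. The 14 tested markers of Kupffer cells and macrophages, of 16 listed, were all lower in *Txnip*-/- libraries, 13 of them with an adjusted p under 0.05, and the summed level of the list was 329 to 364.6 CPM against 814.8 to 849.1 CPM in WT. *Clec4f*, the defining Kupffer cell marker, was at 3.91, 9.68 and 7.91 CPM against 12.2, 14.8 and 20.8 CPM. Its genotypes did not overlap, but among the tested markers it alone was not called (adjusted p = 0.0917 by edgeR). The untested markers, *Timd4* and *Fcgr1*, were scarce and overlapped between genotypes, with means of 0.552 and 0.581 CPM against 0.559 and 0.722 CPM. No marker of the list was at 0 in all libraries. All 12 LSEC markers were tested and lay lower in *Txnip*-/- libraries, 3 of them called (*Stab1*, *Stab2* and *Mrc1*), whereas *Pecam1* (833 to 955 against 844 to 1098 CPM) and *Cdh5* (1007 to 1169 against 1005 to 1210 CPM) overlapped between genotypes. Stellate cell markers summed to 38.08 to 49.34 CPM against 22.1 to 25.21 CPM in WT, with *Dcn* called higher. Neutrophil and lymphocyte markers were at or near 0, with sums of at most 1.53 and 0.642 CPM. Hepatocyte markers summed to 37.31 to 55.06 CPM against 38.29 to 39.03 CPM, and dendritic cell markers to 67.14 to 79.61 CPM against 67.84 to 97.84 CPM, with none called in either list. In bulk samples fewer cells of a type and less RNA per cell cannot be told apart, and the part of other cell types in the results below was not tested.

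The feedback inhibitors held the strongest call. *Tnip1* (chr11:54910785-54962917, minus strand) encodes ABIN-1, a ubiquitin-binding partner of the deubiquitinase A20 that limits signalling to NF-κB. It was at 312, 306 and 310 CPM in *Txnip*-/- replicates 1 to 3 and at 202, 191 and 248 CPM in WT replicates 1 to 3. The *Txnip*-/- libraries lay close together and all above the WT libraries, of which replicate 3 was the highest. The means of 309 ± 2.68 and 214 ± 30.4 CPM (SD, n = 3 each) gave a log2 fold change of 0.53 (SE 0.10, adjusted p = 0.00796 by edgeR), a 1.45-fold difference with a 95% interval of 1.25 to 1.67. Without WT replicate 3 the log2 fold change was 0.65 with an adjusted p of 4.45e-05, and with any other single library left out the adjusted p lay between 0.0518 and 0.0732, so that this gene was called in 1 of 6 such fits.

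*Nfkbia* (chr12:55489410-55492647, minus strand) encodes IκBα, the inhibitor that IKK destroys and that NF-κB makes anew. With 1448, 1305 and 1395 CPM in *Txnip*-/- and 1038, 1027 and 1167 CPM in WT libraries it was the most abundant member. The genotypes did not overlap, and WT replicate 3 was again the nearest to the *Txnip*-/- libraries. The means of 1383 ± 72.1 and 1077 ± 78.0 CPM (SD, n = 3 each) gave a log2 fold change of 0.36 (SE 0.08, adjusted p = 0.0212 by edgeR), or 1.28-fold (95% interval 1.15 to 1.44). The adjusted p was 0.000254 without WT replicate 3 and 0.0452 without *Txnip*-/- replicate 2. It was 0.162, 0.126, 0.147 and 0.127 without *Txnip*-/- replicate 1, *Txnip*-/- replicate 3, WT replicate 1 and WT replicate 2.

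*Nfkb2* (chr19:46304320-46312385, plus strand) encodes p100, the precursor that is cut to the p52 subunit of the non-canonical pathway and that also retains dimers in the cytoplasm. It was at 121, 120 and 104 CPM in *Txnip*-/- and at 82.3, 82.0 and 84.2 CPM in WT libraries. The WT libraries were almost equal, and each *Txnip*-/- library lay above them. The log2 fold change was 0.47 (SE 0.10, adjusted p = 0.0237 by edgeR), or 1.39-fold (95% interval 1.19 to 1.61). The adjusted p was 0.0142 without WT replicate 3 and 0.0323 without *Txnip*-/- replicate 3, and 0.128, 0.111, 0.144 and 0.128 without *Txnip*-/- replicate 1, *Txnip*-/- replicate 2, WT replicate 1 and WT replicate 2. The 3′ end of *Nfkb2* overlaps *Psd* on the opposite strand, which was at 26.6, 30.1 and 36.4 CPM against 24.1, 23.3 and 21.4 CPM. Whether counting used strand is not given in the sources used here, and without strand the reads of the pair cannot be told apart.

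**Figure D1:**
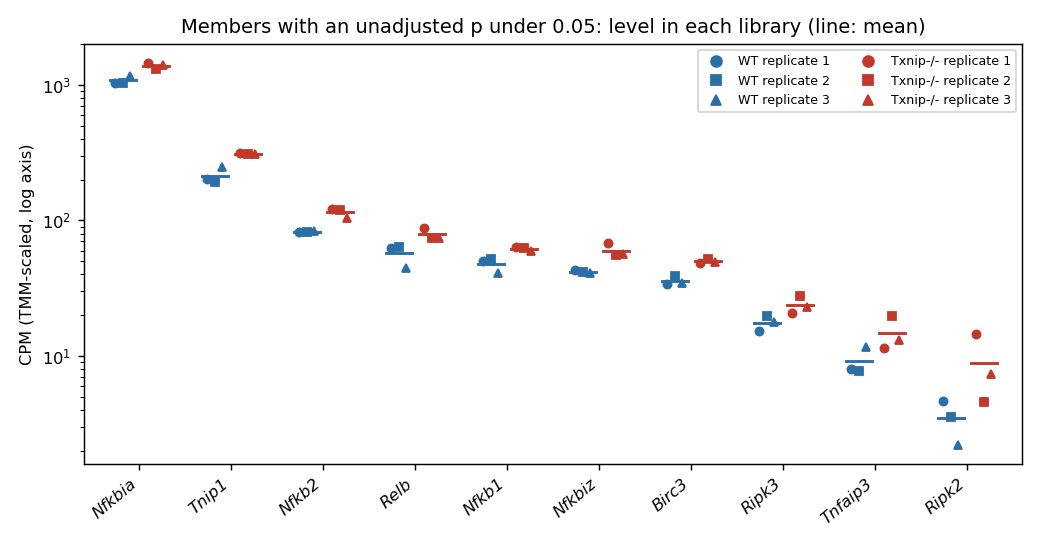
TMM-scaled CPM on a log axis for the 10 members with an unadjusted p under 0.05, with 1 point per library (blue WT, red *Txnip*-/-, shapes for replicates) and lines at the means. The *Txnip*-/- libraries lie above all WT libraries for 8 of the 10, while *Ripk2* and *Tnfaip3* overlap.

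Over all genes tested, 66 were called higher (0.57%) and 113 lower (0.976%) in *Txnip*-/- LSECs, so the 3 members called higher stand beside a background of 0.57%. With no normalization factors the calls over all genes were 36 higher and 150 lower, and 1 member was called. At an unadjusted p under 0.05, 10 members were higher, with a background of 5.48% of all genes tested, and 0 were lower, with a background of 6.05%. By DESeq2, 5 members were higher and 0 lower, and by limma-trend 3 were higher and 0 lower. All *Txnip*-/- libraries lay above all WT libraries for 10 of the 53 tested members (8.43% of all genes tested) and below them for 1, *Myd88* (8.94%). The log2 fold changes of the 53 members had a median of 0.09, 35 of them above 0 and 18 below, against a median of -2.75e-05 over all genes tested. A term in the fit that sets WT replicates 1 and 2 apart left WT replicate 3 as the only WT library in the comparison. Fold changes from that fit are given below as sizes only.

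The 5 subunit genes were all higher in *Txnip*-/- LSECs on average, with a median log2 fold change of 0.37. Apart from *Nfkb2*, none passed the adjusted threshold with the reported fit. *Relb*, the partner of p52, was at 88.7, 73.7 and 74.6 CPM against 62.4, 64.2 and 44.6 CPM in WT libraries (log2 fold change 0.47, SE 0.14, adjusted p = 0.137 by edgeR), with WT replicate 3 the lowest. *Nfkb1*, which encodes p105 and its product p50, was at 63.2, 62.7 and 59.0 CPM against 49.9, 52.1 and 41.0 CPM (0.37, SE 0.13, adjusted p = 0.232). Both were separated without overlap, and for both the log2 fold change was smaller without WT replicate 3, at 0.32 and 0.27. *Relb* was called with no filter on low counts (adjusted p = 0.0226 by edgeR). With the term that leaves WT replicate 3 as the only WT library, the log2 fold change of *Relb* was 0.82 and that of *Nfkb1* was 0.59. *Rela*, which encodes the p65 subunit, was at 194, 180 and 196 CPM against 175, 162 and 169 CPM (0.17, SE 0.09, adjusted p = 0.487), also without overlap and with the smallest difference of the family. *Rel*, which encodes c-Rel, was low at 2.25 to 8.97 CPM against 3.99 to 6.19 CPM, and its genotypes overlapped.

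Among the other inhibitors of the IκB family, *Nfkbib*, whose 3′ end overlaps *Ccer2* on the opposite strand, and *Nfkbie* had log2 fold changes of 0.05 and -0.07. *Nfkbid*, at most 6.36 CPM in any library, had one of 0.58 with a 95% interval from -0.67 to 1.82. The atypical family member *Nfkbiz*, which acts in the nucleus and can raise or lower NF-κB target genes, was at 67.9, 55.1 and 56.1 CPM against 43.3, 41.6 and 41.0 CPM. Its genotypes did not overlap and *Txnip*-/- replicate 1 was the highest library (log2 fold change 0.51, SE 0.13, adjusted p = 0.0637 by edgeR). DESeq2 called it, as did edgeR with no filter on low counts. *Bcl3*, a nuclear co-regulator that binds p50 and p52 dimers, was at 13.8, 14.9 and 10.8 CPM against 12.4, 9.62 and 8.57 CPM and overlapped (0.37, adjusted p = 0.625).

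*Tnfaip3* encodes A20, the ubiquitin-editing enzyme with which ABIN-1 works. It was at 11.4, 19.6 and 13.0 CPM in *Txnip*-/- and at 7.98, 7.81 and 11.6 CPM in WT libraries. WT replicate 3 exceeded the lowest *Txnip*-/- library, and the log2 fold change of 0.69 (SE 0.27) had an adjusted p of 0.311 by edgeR. The other deubiquitinase genes, *Cyld* and *Otulin*, had log2 fold changes of -0.16 and 0.14, and *Tnip2*, which encodes a relative of ABIN-1, had one of 0.07. *Irak3* and *Tollip*, inhibitors at the level of TLR adaptors, had log2 fold changes of 0.01 and 0.00, and their levels overlapped. The called inhibitors were therefore *Tnip1* and *Nfkbia*, 2 of the 11 tested, and 9 of the 11 lay above 0. *Tnfaip3* had a larger log2 fold change than either and an unadjusted p of 0.0217 by edgeR, but it was not called. A rise of inhibitors other than the 2 called is thus not excluded.

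The TAK1 complex had no member with an unadjusted p under 0.05, and neither DESeq2 nor limma-trend called one. *Map3k7* (chr4:31964097-32023467, plus strand), which encodes TAK1, the kinase that passes receptor signals to both IKK and JNK, was at 109, 112 and 111 CPM in *Txnip*-/- and at 111, 111 and 116 CPM in WT libraries. The 6 libraries spanned a narrow range and overlapped. The fold was 0.981, with a 95% interval of 0.854 to 1.13 (adjusted p = 0.948 by edgeR). *Tab2*, one of its ubiquitin-binding partners, was at 128, 122 and 127 CPM against 129, 143 and 124 CPM, with a log2 fold change of -0.07 and an interval from -0.28 to 0.13. The other partners were scarce. *Tab3* was at 5.92, 6.12 and 7.70 CPM against 7.495, 6.48 and 5.92 CPM, with an interval on the log2 scale from -0.68 to 0.66. *Tab1* was at 2.68, 4.38 and 3.31 CPM against 3.70, 2.76 and 3.28 CPM, with an interval from -0.92 to 1.11, so that for both a difference of moderate size was not detectable at this depth. These are transcript levels and do not measure TAK1 protein or its phosphorylation.

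**Figure D2:**
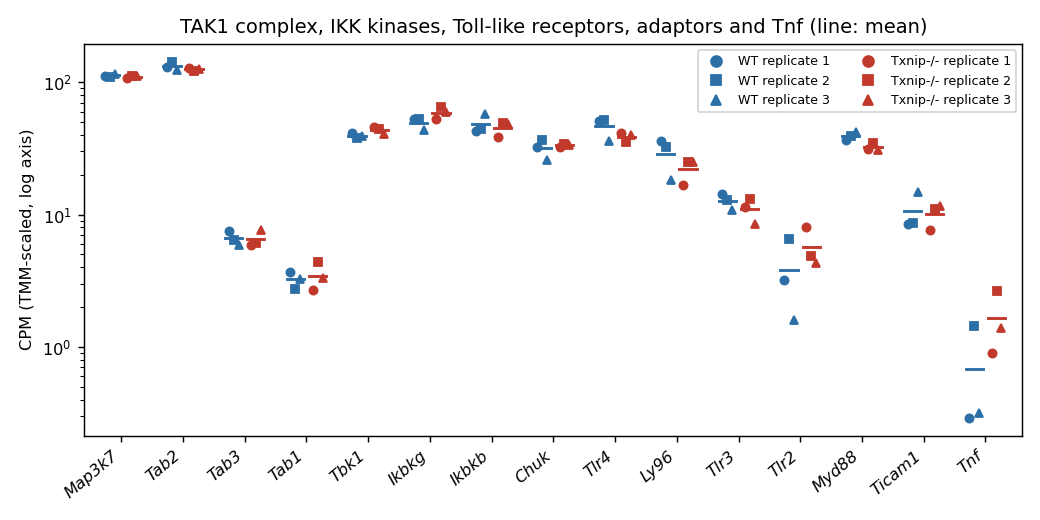
TMM-scaled CPM on a log axis for tested members of the TAK1 complex, the IKK kinases and the Toll-like receptor group, the adaptors *Myd88* and *Ticam1*, and *Tnf*, with 1 point per library (blue WT, red *Txnip*-/-) and lines at the means. *Map3k7* stays between 109 and 116 CPM in all 6 libraries, and *Myd88* alone among the genes drawn, all of them tested, has no overlap between genotypes.

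The tested IKK and related kinases had log2 fold changes between -0.09 and 0.30. These were 0.25 for *Ikbkg* (the regulatory subunit NEMO), 0.14 for *Tbk1*, 0.08 for *Chuk* (IKKα), -0.09 for *Ikbkb* (IKKβ) and 0.30 for *Map3k14* (NIK, the kinase of the non-canonical pathway), and the lowest adjusted p among them was 0.493. *Ikbke*, which encodes IKKε, was below the filter with 0, 5 and 0 counts in *Txnip*-/- and 6, 16 and 41 counts in WT libraries, so that all *Txnip*-/- libraries lay below all WT libraries at very low counts. *Rnf31*, the catalytic subunit of the linear ubiquitin ligase, had a log2 fold change of 0.15, and it shares 11.5% of the 75-base stretches of its 3′ end with *Irf9*, so its count is uncertain.

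TNF and its receptors had no called change. *Tnf* (chr17:35199381-35202007, minus strand) had 8, 26 and 13 counts in *Txnip*-/- and 3, 15 and 3 counts in WT libraries. Levels of 0.893, 2.65 and 1.39 CPM against 0.292, 1.43 and 0.317 CPM overlapped, and the log2 fold change of 1.25 had a 95% interval from -0.58 to 3.09 (adjusted p = 0.645 by edgeR). The receptors had log2 fold changes of -0.09 for *Tnfrsf1a*, -0.46 for *Tnfrsf1b* and -0.06 for *Ltbr*. *Ripk1* and *Tradd*, the first adaptors of the TNF receptor, had log2 fold changes of 0.10 and -0.01.

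The cIAP ligases ubiquitinate RIPK1 downstream of TNF and restrain NIK. *Birc3* (cIAP2) was at 48.9, 52.1 and 49.7 CPM against 34.2, 39.2 and 34.3 CPM in WT libraries, without overlap (log2 fold change 0.49, SE 0.13, adjusted p = 0.0917 by edgeR), and DESeq2 called it. *Birc2* (cIAP1) was at 79.0 to 83.1 CPM against 72.5 to 86.6 CPM, with a log2 fold change of 0.03. *Ripk3*, the kinase of necroptosis, was at 20.9, 27.6 and 23.0 CPM against 15.4, 19.6 and 17.8 CPM, separated by a small margin (0.44, SE 0.19, adjusted p = 0.375). *Ripk2*, the kinase that serves the NOD receptors, was at 14.6, 4.59 and 7.38 CPM against 4.67, 3.52 and 2.22 CPM. *Txnip*-/- replicate 1 stood above the rest and *Txnip*-/- replicate 2 lay within the WT range (1.34, SE 0.44, adjusted p = 0.185), and only the fit with no filter on low counts called it.

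Of the TRAF adaptors among the members, *Traf3* was the most abundant and *Traf5* the scarcest on average. *Traf2*, *Traf5* and *Traf6* had log2 fold changes of 0.18, 0.93 and -0.21, the one of *Traf5* at 0.51 to 4.70 CPM against 0.876 to 2.75 CPM. *Traf3*, which restrains NIK, had one of 0.14, at 25.9 to 35.2 CPM against 26.8 to 31.6 CPM. *Traf1*, an NF-κB-induced adaptor, was at 8.49, 7.85 and 8.45 CPM against 7.20, 6.86 and 5.92 CPM, separated by a small margin (0.31, adjusted p = 0.769 by edgeR).

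Of the 4 tested genes of the TLR group 1 lay above 0 and 3 below, of the 6 adaptors and IRAK kinases 2 above and 4 below, and none had an unadjusted p under 0.05. *Tlr4* (chr4:66827584-66930284, plus strand), the receptor for lipopolysaccharide, was at 41.2, 35.3 and 39.9 CPM in *Txnip*-/- and at 51.2, 51.9 and 36.2 CPM in WT libraries. WT replicates 1 and 2 were the highest, and WT replicate 3 lay among the *Txnip*-/- libraries. The log2 fold change was -0.26 (SE 0.16, adjusted p = 0.568 by edgeR), and it was -0.41 without WT replicate 3 (adjusted p = 0.149). Against WT replicate 3 alone, by the term that sets WT replicates 1 and 2 apart, it was 0.10. *Ly96*, which encodes the TLR4 co-receptor MD-2, was at 35.7, 32.7 and 18.4 CPM in WT libraries, with replicate 3 again the lowest, against 16.6, 24.9 and 25.02 CPM in *Txnip*-/- libraries. *Tlr3* had a log2 fold change of -0.20. *Tlr2* was at 8.04, 4.89 and 4.28 CPM against 3.21, 6.57 and 1.59 CPM and overlapped. *Tlr7*, a receptor for single-stranded RNA, was below the filter with 0, 0 and 4 counts against 2, 35 and 21 counts. Macrophages also express TLRs and *Ly96*, and the macrophage markers given above were lower in *Txnip*-/- libraries. Their part in these values was not tested.

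*Myd88*, the adaptor of most TLRs and of the IL-1 receptor, was at 31.6, 34.8 and 30.7 CPM in *Txnip*-/- and at 36.7, 39.4 and 42.4 CPM in WT libraries. It was the single tested member with all *Txnip*-/- libraries below all WT libraries, and its log2 fold change of -0.29 had a 95% interval from -0.59 to 0.01 (adjusted p = 0.461 by edgeR). The other adaptors *Tirap* and *Ticam1* had log2 fold changes of 0.00 and -0.07. The IRAK kinases that MyD88 recruits had log2 fold changes of 0.07 for *Irak1*, -0.07 for *Irak2* and -0.30 for *Irak4*, whose 3′ end overlaps *Twf1* on the opposite strand.

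**Figure D3:**
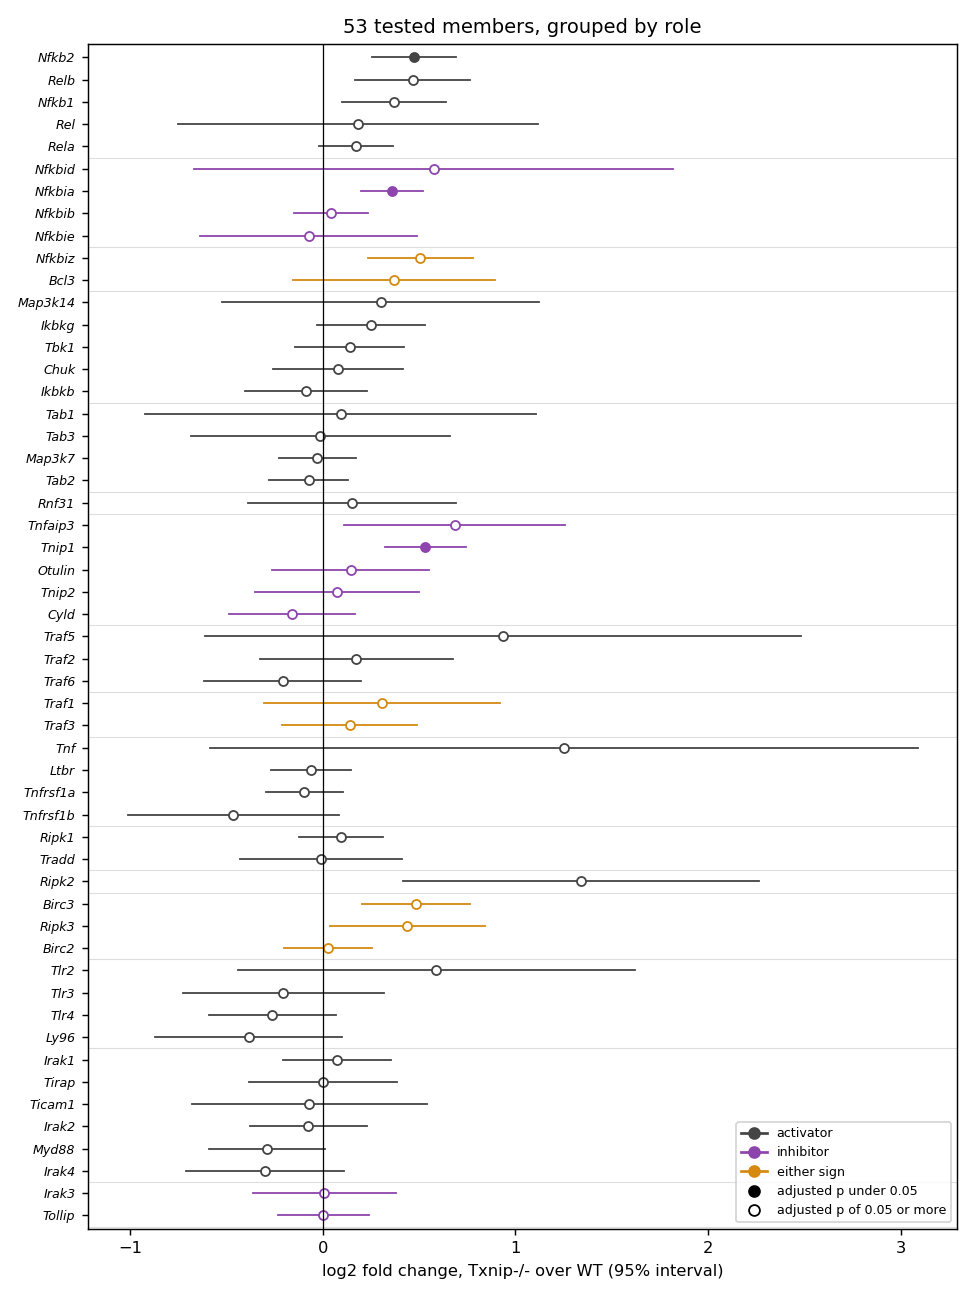
Log2 fold change of *Txnip*-/- over WT with 95% intervals for the 53 tested members, grouped by role, grey for activators, purple for inhibitors and orange for members of either sign, with filled points where the adjusted p was under 0.05. The 3 filled points are *Nfkb2*, *Nfkbia* and *Tnip1*. The points of the TAK1 complex lie near the zero line, with wide intervals for *Tab1* (-0.92 to 1.11) and *Tab3* (-0.68 to 0.66).

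Sorting the members into activators and inhibitors did not separate their medians, although their sums differed. The 37 activators in the files summed to 1720 to 1808 CPM in *Txnip*-/- and to 1644 to 1746 CPM in WT libraries, which overlapped. The 11 inhibitors summed to 2110 to 2228 CPM against 1714 to 1879 CPM, without overlap, and *Nfkbia* was the largest term. The 35 tested activators had a median log2 fold change of 0.07, with 19 above 0, 16 below and 1 called, and the 11 inhibitors also had a median of 0.07, with 9 above 0, 2 below and 2 called. The 7 members that act with either sign, such as *Nfkbiz* and *Birc3*, were all above 0 with a median of 0.37 and none called by edgeR, although 3 had an unadjusted p under 0.05 and DESeq2 called those 2. Whether a member is itself induced by NF-κB divided the medians more. Of the 16 induced members, 14 lay above 0, 3 were called, 8 had an unadjusted p under 0.05, and 8 had no overlap between genotypes, each of these in the higher direction, for which the shares over all genes tested were 0.57%, 5.48% and 8.43%. Of the other 37, 21 lay above 0 and 16 below, none was called, and 2 (*Ripk2* and *Ripk3*) had an unadjusted p under 0.05. The induced members summed to 2102 to 2261 CPM in *Txnip*-/- and to 1614 to 1757 CPM in WT libraries, of which *Nfkbia* was the largest term, and the others to 2045 to 2055 CPM against 1973 to 2088 CPM. This division uses a list chosen with earlier results of these data known, so it is a description and carries no test.

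**Figure D4:**
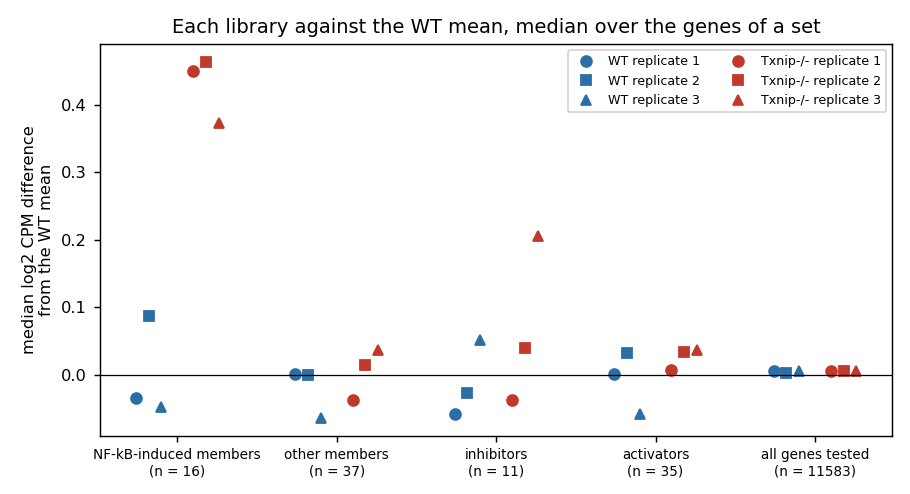
Median over the genes of a set of the log2 CPM difference between a library and the WT mean, with 1 point per library (blue WT, red *Txnip*-/-). For the 16 NF-κB-induced members the *Txnip*-/- libraries lie at 0.37 to 0.46 and the WT libraries at -0.05 to 0.09, while the other sets lie near 0 in both genotypes, with 1 *Txnip*-/- library at 0.21 for the inhibitors.

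Genes next to the members in the pathway were taken from 3 further lists. Of 80 other receptors, adaptors and regulators, 59 were tested, 28 lay above 0 and 31 below, and edgeR, DESeq2 and limma-trend each called 0. At an unadjusted p under 0.05 by edgeR, 4 were higher and 3 lower, beside 5.48% and 6.05% of all genes tested. Without WT replicate 3, 1 gene of this list was called, the interleukin-1 receptor *Il1r1* (log2 fold change 0.54, adjusted p = 0.0335 by edgeR), a gene named after its values were seen. Of 22 JNK and p38 genes below TAK1, 19 were tested with a median of 0.06. Of the 19, 1 was called higher and 0 lower, beside 0.57% and 0.976% of all genes tested. The called gene was *Fosl1*, which encodes the AP-1 subunit FRA1, at 115, 143 and 149 CPM against 91.9, 103 and 83.1 CPM (log2 fold change 0.55, SE 0.12, adjusted p = 0.0211 by edgeR). Its genotypes did not overlap, its 3′ end overlaps *Ccdc85b* on the opposite strand, and it was not called without *Txnip*-/- replicate 2, *Txnip*-/- replicate 3 or WT replicate 1.

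Of 31 NF-κB target genes outside the members, a list chosen with earlier results of these data known, 23 were tested with a median of 0.55. Of these 18 lay above 0, 8 were called higher and 1 lower, beside 0.57% and 0.976% of all genes tested. Genotypes did not overlap for 11 in the higher direction and 3 in the lower, beside 8.43% and 8.94%. The 3 were *Bcl2a1b*, *Plau* (log2 fold change -0.61) and *Ccl5* (-1.01), of which only *Bcl2a1b* was called. Those called higher were the chemokines *Cxcl1*, *Cxcl2*, *Cxcl5*, *Ccl2* and *Ccl7*, the macrophage growth factor *Csf1*, *Sod2*, which encodes the mitochondrial superoxide dismutase, and *Gadd45b*, a stress-response gene. Their log2 fold changes ran from 0.55 for *Sod2* to 3.26 for *Cxcl5*, and each had all *Txnip*-/- libraries above all WT libraries. *Sod2*, the nearest of them in size to the members, was at 157, 133 and 119 CPM against 96.6, 91.9 and 90.0 CPM. The 4 adhesion molecules of the list did not pass the test. Their log2 fold changes were 0.13 for *Vcam1*, 0.14 for *Icam1*, 1.17 for *Sele* (0.381 to 3.91 CPM in all libraries) and -0.04 for *Selp*. *Bcl2a1b* was lower by a log2 fold change of -1.70, and it is uncertain because 74.4% of the 75-base stretches of its 3′ end also occur in near-identical copies. Without *Txnip*-/- replicate 2 the count of called targets was 5.

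**Figure D5:**
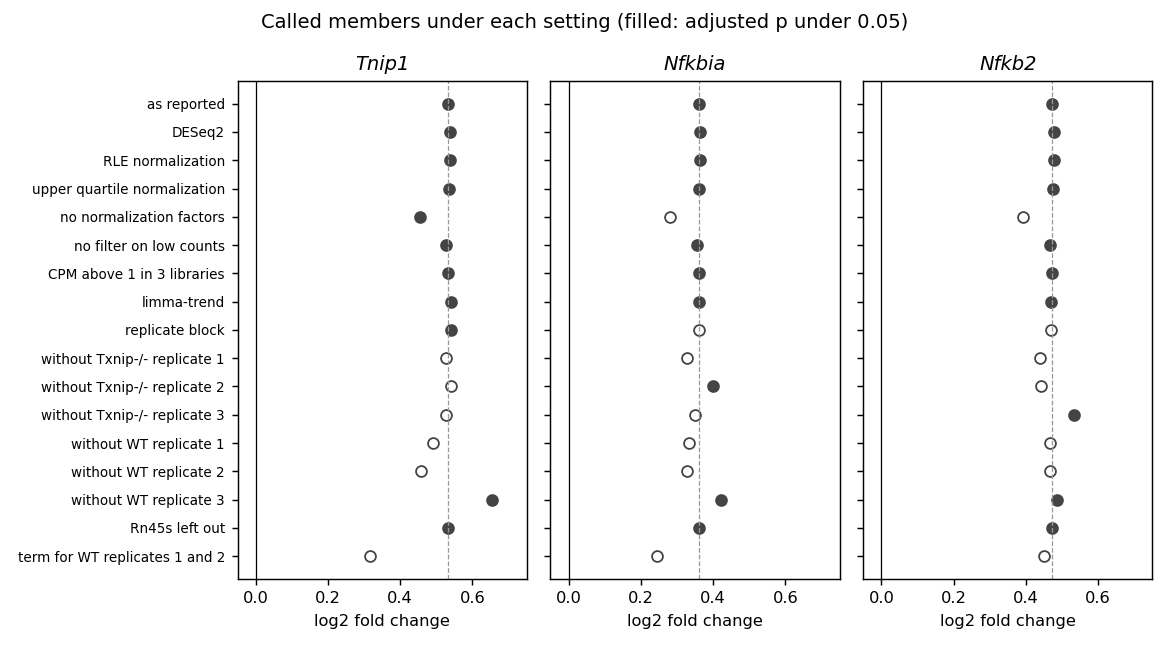
Log2 fold change of *Tnip1*, *Nfkbia* and *Nfkb2* as reported and under 16 other settings, with filled points where the adjusted p was under 0.05 and a dashed line at the reported value. All points lie above 0, and *Tnip1* was called under 10 of the 16 settings, *Nfkbia* and *Nfkb2* under 9 each. The 16 settings include the term that leaves WT replicate 3 as the only WT library, whose points are to be read for size only.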

How the data were processed

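All 6 LSEC libraries, 3 for each genotype, were used. The deposited values are raw counts per gene, made by the authors from single-end QuantSeq 3′ reads that were mapped with Bowtie2 and tallied with bedtools, reads with several alignments included. The submitters' processing notes name mm10. Tool versions, the annotation and the use of strand are not given in the sources used here. No molecular identifiers are named, so floors cover counting error only. Each file has 23282 rows, of which 44 carry a repeated symbol and stayed separate. The authors' own tests were not used.

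Genotypes were compared by the two-sided quasi-likelihood test of edgeR 4.0.16 under R 4.3.3 (filterByExpr, TMM factors, glmQLFit), which kept 11583 genes and had no covariate. Adjustment was by Benjamini-Hochberg over all genes tested, and genes with an adjusted p under 0.05 were called. Standard errors were derived from the fold change and its F statistic. Nothing in the labels says that libraries came from separate mice, so p-values measure only the spread between these samples. Alternatives were DESeq2 1.42.0, limma-trend (limma 3.58.1), RLE, upper quartile or no normalization factors, no filter, and a filter of CPM above 1 in 3 libraries. Others were the replicate number as a block, each library left out, a fold change above 1.3, *Rn45s* left out, and a term that sets WT replicates 1 and 2 apart. That term leaves WT replicate 3 as the only WT library compared with the *Txnip*-/- libraries.

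The members, the lists and the rule for named genes were chosen with earlier results of these data known. By that rule every member is accounted for, values in each library are given for members with an unadjusted p under 0.05, the TAK1 complex, *Nfkb1*, *Rela*, *Nfkbia*, *Tnfaip3*, *Tlr4*, *Tnf* and *Myd88*, and called genes of the other lists are named. Values of other genes were chosen after they were seen. Gene positions were taken from GENCODE M21 on GRCm38, the build of mm10, and promoter windows (250 bases before and 50 after a start, 45 of 55 members) those of RefSeq on GRCm38.p6. A κB share counts genes with a match in any window, within the 250 bases before a start.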

Additional observations from a re-analysis of the deposited data

How the results depend on the processing

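The directions of *Tnip1*, *Nfkbia* and *Nfkb2* held under all 16 alternatives, but their calls did not. Members called numbered 3 as reported, 5 by DESeq2, 6 with no filter on low counts and 1 with no normalization factors. With each library left out they numbered 0 to 3 (0 without *Txnip*-/- replicate 1, WT replicate 1 or WT replicate 2). The deviations of same-numbered libraries from the mean of their genotype had correlations of -0.0296, 0.0167 and -0.0469. With 3 libraries per genotype these values cannot settle whether the numbers pair the libraries. With the numbers as a block 1 member, 108 of all genes and 0 JNK and p38 genes were called. Genes called over the whole table numbered 179 as reported, 302 by DESeq2, 346 with no filter and 89 to 367 with a library left out (367 without WT replicate 3). The JNK and p38 count was 0 with no normalization factors and 0 to 1 with a library left out, that of NF-κB targets 5 to 9, and that of other pathway genes 0 to 1. The median of activators, 0.07, was -0.011 with no normalization factors, -0.0031 with no filter, 0.14 with the term for WT replicates 1 and 2, and -0.022 to 0.0997 with a library left out. The median of inhibitors, 0.07, was -0.014 with no normalization factors and 0.012 to 0.086 with a library left out. The median of NF-κB-induced members, 0.47, was 0.38 with no normalization factors and 0.34 to 0.51 with a library left out. With the term for WT replicates 1 and 2, *Tab2* (0.020), *Tab3* (0.15) and *Tlr4* (0.10) changed sign, and with a library left out *Tab1* ran from -0.11 to 0.25 and *Tab3* from -0.14 to 0.082, none of them called in any of these. With that term the log2 fold changes of *Tnip1*, *Nfkbia* and *Nfkb2* were 0.32, 0.24 and 0.45, with adjusted p-values of 0.126, 0.122 and 0.119 by edgeR. The causes of these changes were not tested. The 3 libraries per genotype and the low counts of *Tnf*, *Tab1*, *Ikbke* and *Tlr7* limit what could be seen.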

Other observations

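The genes of the other pathway list with an unadjusted p under 0.05, chosen after their values were seen, were not called by edgeR with all libraries. Higher in *Txnip*-/- LSECs were the interleukin-1 receptor *Il1r1* (74.1, 61.6 and 60.3 CPM against 44.9, 44.9 and 54.8 CPM in WT libraries, log2 fold change 0.44, adjusted p = 0.138), *Cd40* (0.91, adjusted p = 0.428), the ubiquitin ligase *Itch* (0.32) and *Nkap* (0.34). Lower were *Cd14*, the lipopolysaccharide co-receptor, at 19.0, 28.8 and 28.8 CPM against 35.3, 40.6 and 33.4 CPM (-0.51, adjusted p = 0.235), *Cnpy3*, a chaperone of TLRs, at 79.3, 86.4 and 77.9 CPM against 96.5, 99.1 and 114 CPM (-0.34, adjusted p = 0.159), and the bacterial sensor *Nod1* (-0.32). Of these, *Il1r1*, *Itch*, *Cd40*, *Cd14*, *Cnpy3* and *Nod1* had no overlap between genotypes. Over the 59 tested genes of the list, 9 had no overlap in the higher direction and 7 in the lower, beside 8.43% and 8.94% of all genes tested. Macrophages also express *Cd14*, and the part of the lower macrophage markers in its value was not tested.

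Among the JNK and p38 genes, *Junb* was at 119, 105 and 107 CPM in *Txnip*-/- and 89.8, 94.2 and 79.6 CPM in WT libraries, without overlap (log2 fold change 0.33, adjusted p = 0.187 by edgeR), and *Jun* at 307, 349 and 307 CPM against 297, 290 and 274 CPM (0.16, adjusted p = 0.514). The JNK genes *Mapk8* and *Mapk9* had log2 fold changes of -0.03 and -0.08, and the kinases between TAK1 and JNK, *Map2k4* and *Map2k7*, had 0.13 and 0.06, all with overlapping genotypes.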
